A study of Homo sapiens with 6 samples.

Results

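Long noncoding RNAs are transcripts that are not translated into a known protein. Many of them act in the nucleus as scaffolds for proteins or on the chromatin next to their own gene, and others carry small RNAs in their introns or bind microRNAs and proteins in the cytoplasm. The genes described here are often studied in hepatocellular carcinoma. They were MALAT1, NEAT1, KCNQ1OT1, HULC, GAS5, SNHG1, HOTTIP and UCA1, which were chosen by name as 8 of the 59608 gene rows of a read count table. The cells were HepG2, a human hepatoma line. In the cells of all 6 libraries endogenous VEZF1, a zinc finger transcription factor, had been silenced with a lentivirus-encoded guide RNA. VEZF1-WT cells (3 libraries) then re-expressed the wild-type protein. VEZF1-2A cells (3 libraries) re-expressed a form in which serines reported to carry O-GlcNAc, a single-sugar modification, were replaced by alanine. The comparison asked whether RNA levels depended on the modification of VEZF1. Cells with endogenous VEZF1 and cells without re-expression were not analysed here. The sources used here do not say whether the 3 libraries of a group came from separate cultures, so p-values measure the spread between these libraries, which may be technical.

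The total count was 47414775, 35272710 and 57199396 in VEZF1-WT libraries 1, 2 and 3, and 28756765, 39565464 and 33966492 in VEZF1-2A libraries 1, 2 and 3. Levels are given as counts per 1000000 counts (CPM) after scaling by trimmed mean of M values (TMM), and values of 3 libraries are listed in the order 1, 2, 3. VEZF1 itself had 59.3, 45.6 and 40.0 CPM in VEZF1-WT and 46.2, 48.6 and 38.9 CPM in VEZF1-2A. The groups overlapped, and reads from the silenced gene and from the re-expressed form cannot be told apart in this row. Liver cell markers were abundant, with summed levels from 16770 to 21960 CPM over 11 genes and APOB, the main protein of low-density lipoprotein, the most abundant. The 8 fibroblast markers summed to between 1.94 and 3.53 CPM and the 5 endothelial markers to between 2.20 and 4.35 CPM. The fibroblast marker LUM had no count in any library, and the endothelial markers KDR and TEK had at most 2. The 6 leukocyte markers summed to between 656.9 and 776.1 CPM, nearly all of it LYZ, a lysozyme, and CD68, a lysosomal protein, while the defining genes PTPRC and CD3E had at most 4 and 2 counts in a library.

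MALAT1 and NEAT1 are neighbouring nuclear RNAs, of which the first gathers at nuclear speckles and the second builds paraspeckles. Both lack the usual poly(A) tail in their long forms, and their ends are cut by RNase P next to a genome-encoded A-rich stretch. mRNA library kits usually start from the poly(A) tail, so the longest run of A in the longest annotated transcript (GENCODE release 29, GRCh38) is shown in capitals for MALAT1 and KCNQ1OT1. The run was 13 bases long in MALAT1 and 29 in KCNQ1OT1, and runs of at least 10 A numbered 1 in the 8708 bases of MALAT1 and 17 in the 91667 bases of KCNQ1OT1. They read as follows, from chr11:65506073-65506135 (plus strand) and chr11:2610692-2610770 (minus strand).
MALAT1: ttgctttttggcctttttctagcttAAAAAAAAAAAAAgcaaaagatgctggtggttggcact
KCNQ1OT1: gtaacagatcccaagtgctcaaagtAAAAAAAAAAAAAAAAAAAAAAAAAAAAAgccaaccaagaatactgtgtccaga
The longest run was 5 bases in GAS5, 6 in SNHG1 and 6 in UCA1, and none of these 3 had a run of 10. HOTTIP had a longest run of 11 and 1 run of at least 10. Which stretch of a transcript the reads came from was not analysed here.

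The annotated 3′ ends of MALAT1 (chr11:65506410-65506469) and NEAT1 (chr11:65445481-65445540) are shown because polyadenylated RNAs usually carry AATAAA or ATTAAA a short way before their end. These letters are in capitals.
MALAT1 end: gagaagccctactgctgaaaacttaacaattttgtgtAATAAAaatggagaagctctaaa
NEAT1 end: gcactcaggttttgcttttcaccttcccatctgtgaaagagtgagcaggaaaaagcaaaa
The window held 1 such hexamer in MALAT1 and none in the long NEAT1 transcript. The MALAT1 window lies downstream of the A run printed above, which ends at base 8349 of the 8708 bases of that transcript. It is therefore an annotated end that need not be the end made by RNase P. Where these RNAs end in the cells was not analysed here.

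RefSeq promoters (GRCh38.p14, from 250 bases before to 50 bases after the start) were found for 4 of the 8 genes. VEZF1 is known for binding strings of G, so GGGGGGGG, the related GGGAGGG, the GC box GGGCGG and TATAAA were searched on both strands. GGGGGGGG was in none of the promoters of MALAT1, GAS5, SNHG1 and HOTTIP, and in 1.83% of all 35116 promoters. GGGAGGG, found in 26.6% of all promoters, had 3 matches in the upstream promoter of MALAT1 and none in the others. GGGCGG, found in 45.0% of all promoters, had 5 matches in this MALAT1 promoter, 5 in HOTTIP and 1 in SNHG1. These 3 promoters differ in how many such letters they hold, and they are printed with the matches to GGGCGG and to the related motif above in capitals, on either strand, where neighbouring matches share bases. They lie at chr11:65497488-65497787 (plus strand), chr11:62855836-62856135 (minus strand) and chr7:27200171-27200470 (plus strand).
MALAT1: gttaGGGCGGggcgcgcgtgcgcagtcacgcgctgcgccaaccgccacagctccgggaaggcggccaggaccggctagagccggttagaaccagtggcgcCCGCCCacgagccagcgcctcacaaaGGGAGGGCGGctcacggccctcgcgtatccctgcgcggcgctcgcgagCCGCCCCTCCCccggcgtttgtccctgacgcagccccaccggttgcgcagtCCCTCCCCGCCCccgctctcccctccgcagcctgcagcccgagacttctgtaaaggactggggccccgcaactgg
SNHG1: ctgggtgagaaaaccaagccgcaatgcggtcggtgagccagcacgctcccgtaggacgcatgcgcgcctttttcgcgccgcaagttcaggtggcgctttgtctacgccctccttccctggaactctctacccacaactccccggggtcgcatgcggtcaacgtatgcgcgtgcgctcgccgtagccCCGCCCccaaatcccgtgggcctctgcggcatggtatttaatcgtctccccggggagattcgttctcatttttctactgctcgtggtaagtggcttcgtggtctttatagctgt
HOTTIP: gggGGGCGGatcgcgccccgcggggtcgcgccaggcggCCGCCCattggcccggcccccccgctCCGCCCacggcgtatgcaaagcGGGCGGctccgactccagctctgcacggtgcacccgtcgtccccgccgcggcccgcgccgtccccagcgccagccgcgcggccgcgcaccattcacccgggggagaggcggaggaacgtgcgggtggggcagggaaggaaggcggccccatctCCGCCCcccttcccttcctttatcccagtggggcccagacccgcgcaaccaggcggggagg
TATAAA, found in 11.5% of all promoters, began 30 bases before a second, downstream start of MALAT1 (chr11:65498795-65499094). In SNHG1 it matched only on the opposite strand, 39 bases after the start. RNAs of the translation machinery begin with a C and a run of pyrimidines (a TOP start), a feature for which GAS5 and SNHG1 are known. A C followed by 4 pyrimidines within 5 bases of the start was in 21.1% of all promoters, in the upstream promoter of MALAT1 and in that of HOTTIP, and not in the windows of GAS5 and SNHG1. A match is a description of letters and not of binding, which was not analysed here.

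The rows do not all measure a single RNA. MALAT1 (chr11:65497688-65506516), NEAT1 (chr11:65422774-65445540), KCNQ1OT1 (chr11:2608328-2699994, minus strand) and SNHG1 (chr11:62851984-62855953, minus strand) were counted over their whole span, introns of any spliced form included. GAS5 (chr1:173858559-173868882, minus strand), UCA1 (chr19:15828206-15836328) and HOTTIP (chr7:27198575-27207259) were counted over 4842, 4154 and 5086 exon bases. The HULC row ran from position 8435568 to 9294133 of chromosome 6 with 48395 exon bases, of which 2.44% lay inside the HULC gene of RefSeq (chr6:8652269-8653856). Its count is therefore a count over a much wider stretch, and the level of HULC itself, a cytoplasmic RNA of liver cancer, was not resolved. All 8 rows shared exon bases with other rows, and the strand setting of the counting is not given in the sources used here.

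Per kilobase of exon the 8 rows covered a wide range of levels. In VEZF1-WT, MALAT1 had 83.4 ± 11.97 CPM per kilobase (SD, n = 3), NEAT1 8.91 ± 0.40, GAS5 4.41 ± 0.25, SNHG1 3.88 ± 0.18, UCA1 2.25 ± 0.81, KCNQ1OT1 0.607 ± 0.054 and the HULC row 0.0733 ± 0.0056. The order was the same in VEZF1-2A, where MALAT1 had 79.1 ± 13.6 CPM per kilobase (SD, n = 3) and KCNQ1OT1 0.556 ± 0.068. The values of MALAT1, NEAT1, KCNQ1OT1 and the HULC row did not overlap with their neighbours in this order in any library. UCA1, at 0.973 to 3.58 CPM per kilobase over the 6 libraries, overlapped with SNHG1 at 3.44 to 4.04. GAS5, at 4.05 to 4.74, began just above the range of SNHG1. HOTTIP, an RNA from the end of the HOXA cluster that binds the WDR5 and MLL complex, had counts of 0, 0 and 2 in VEZF1-WT, against 1, 0 and 2 in VEZF1-2A. In the 3 libraries without a count, the limit that a count of 0 allows is 3 counts, or 0.0633 to 0.0851 CPM, counting error only. HOTTIP had too few counts to be tested.

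Next, the 7 rows that passed the filter on low counts were compared between VEZF1-WT and VEZF1-2A. No row differed by the quasi-likelihood test of edgeR, in which the adjusted p (Benjamini-Hochberg, over 19111 genes) of each of the 7 rows was 0.9996. None of the 7 passed an unadjusted p of 0.05 either, against 408 of all genes (2.13%), of which 0.832% of genes tested were higher and 1.3% lower in VEZF1-WT. The share of genes called at an adjusted p of 0.05 was 0.0%. With the replicate number as a block, 1 row, KCNQ1OT1, passed the unadjusted threshold (edgeR), as did 4.32% of all genes. It also passed without VEZF1-2A library 3, where 4.89% of 19883 genes did. The groups were apart in 7.36% of all genes and in none of the 7. The estimate was above 0 in 6 rows and below 0 in NEAT1, with a median log2 fold change of 0.06 against 0.00 over all genes tested. An exact permutation test over 3 against 3 libraries cannot give a p under 0.1, and gave 0.2 for NEAT1 and from 0.3 to 1 for the others.

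MALAT1 had 760, 828 and 621 CPM in VEZF1-WT and 799, 730 and 566 CPM in VEZF1-2A. Library 3 was the lowest of both groups, and the groups overlapped. The log2 fold change of VEZF1-WT over VEZF1-2A was 0.08 with a 95% interval from -0.21 to 0.36, which holds fold changes from 0.866 to 1.28. Its sign turned without VEZF1-WT library 2 (-0.02) and without VEZF1-2A library 3 (-0.06, edgeR). The rows AP000769.3 and AP000769.5 on its strand and AP000769.2 on the other shared from 57 to 396 of its exon bases and had at most 306 counts in a library.

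NEAT1 had 213, 199 and 196 CPM in VEZF1-WT and 228, 205 and 220 CPM in VEZF1-2A. Only VEZF1-WT library 1 exceeded any VEZF1-2A library. The log2 fold change was -0.10 with a 95% interval from -0.24 to 0.04 (edgeR, unadjusted p = 0.134), and it stayed between -0.14 and -0.06 when each library was left out in turn. AP000944.2, AP000944.3, AP000944.4 and the microRNA row MIR612 lie on its exon, and the largest, AP000944.2, had from 612 to 916 counts. None of the 12 paraspeckle proteins passed the unadjusted threshold. SFPQ, an essential paraspeckle protein and the most abundant, had a log2 fold change of 0.08 ± 0.07 (SE), HNRNPH3 0.07 ± 0.06, and the list median was 0.04. Of the 13 nuclear speckle proteins, where MALAT1 resides, none passed, with SRRM1 at 0.12 ± 0.06, PNN at 0.10 ± 0.06 and a median of 0.06.

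KCNQ1OT1 is transcribed from the paternal allele, antisense to the potassium channel gene KCNQ1, and silences genes around it. It had 57.0, 50.1 and 59.7 CPM in VEZF1-WT and 48.9, 46.0 and 58.0 CPM in VEZF1-2A. VEZF1-WT libraries 1 and 3 and VEZF1-2A library 3 were higher than the other libraries, so the groups overlapped. The log2 fold change was 0.13 with a 95% interval from -0.08 to 0.34 (edgeR, unadjusted p = 0.208). With each library left out it ranged from 0.06 (without VEZF1-2A library 2) to 0.23 (without VEZF1-2A library 3), and it was 0.07 without VEZF1-WT library 3 and 0.20 without VEZF1-WT library 2. Without VEZF1-2A library 3 the unadjusted p was 0.0181 (edgeR), in a fit where 4.89% of 19883 genes passed the unadjusted threshold and none the adjusted one. With all 6 libraries and the replicate number as a block, the log2 fold change was 0.13 with an unadjusted p of 0.0363 (edgeR), where 4.32% of all genes passed that threshold. Whether the numbers pair the libraries is not given in the sources used here. The same 3 libraries had the higher summed level of 12 S-phase genes, at 1420, 1197 and 1403 CPM in VEZF1-WT and 1238, 1215 and 1424 CPM in VEZF1-2A. They also had the higher sum of 12 genes of G2 and mitosis, at 2353, 1858 and 2223 CPM in VEZF1-WT and 1923, 1842 and 2358 CPM in VEZF1-2A. The same held for lists outside the cell cycle, such as the 13 nuclear speckle proteins and the 12 paraspeckle proteins. The latter summed to 6357, 6011 and 6297 CPM in VEZF1-WT and 5937, 5733 and 6397 CPM in VEZF1-2A. It did not hold for the 11 liver cell markers. The part of cell cycle in the KCNQ1OT1 values was not tested.

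KCNQ1 had counts of 12, 6 and 7 in VEZF1-WT, against 0, 4 and 4 in VEZF1-2A, too few to pass the filter. It shares 121 exon bases with KCNQ1OT1, and the rows AC021424.1, AC021424.2, AC021424.3 and AC021424.4 share from 116 to 464, each with at most 12 counts. Of 14 listed genes of the imprinted domain, 6 were tested and none passed the unadjusted threshold, with a median log2 fold change of 0.01. NAP1L4, a histone chaperone at the edge of the domain, had 0.08 ± 0.05 (SE), TSSC4 0.20 ± 0.15 and the fetal growth factor IGF2, the most abundant, -0.18 ± 0.25. The 6 polycomb and methylation factors that KCNQ1OT1 is known to bind all had estimates above 0, from 0.00 to 0.08, with none passing. EHMT2, a histone methyltransferase, had 0.08 ± 0.06, SUZ12 of polycomb 0.06 ± 0.07 and the DNA methyltransferase DNMT1 0.04 ± 0.07.

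GAS5 and SNHG1 are spliced RNAs whose introns carry small nucleolar RNAs, the guides of ribosomal RNA modification, and whose spliced forms are degraded when translation runs. GAS5 had 20.8, 20.5 and 22.7 CPM in VEZF1-WT and 19.6, 23.0 and 21.0 CPM in VEZF1-2A. Its values were among the steadiest of the rows, and the groups overlapped. On the log2 scale the difference was 0.01 with a 95% interval from -0.17 to 0.19. It turned to -0.04 without VEZF1-WT library 3 and without VEZF1-2A library 1. GAS5 shared 42 exon bases with GAS5-AS1 on the opposite strand, which had from 2 to 9 counts.

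SNHG1 had 14.7, 16.1 and 15.4 CPM in VEZF1-WT and 13.7, 14.99 and 15.02 CPM in VEZF1-2A. Only VEZF1-WT library 1 lay within the range of VEZF1-2A. The log2 fold change was 0.08 with a 95% interval from -0.11 to 0.26, and from 0.04 to 0.11 with each library left out. Of the 5 small nucleolar RNA rows that lie wholly inside its span, SNORD22, SNORD25, SNORD26, SNORD28 and SNORD30, 4 were tested and none passed the unadjusted threshold, with log2 fold changes from -0.15 to 0.31. SNORD22 had from 56 to 136 counts in a library and SNORD28 from 1 to 4. These rows share their bases with the SNHG1 row. The row of SNORD27, which joins an exon inside SNHG1 to another on a different chromosome, had from 9 to 15 counts and a log2 fold change of -0.46 ± 0.44 (SE, edgeR, unadjusted p = 0.318). No small nucleolar RNA row was found inside the span of GAS5.

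The 19 other host RNAs of small nucleolar RNAs were given beside them. None of the 17 tested passed the unadjusted threshold, and the groups were apart in 1 of 17 against 7.36% of all genes. Their median log2 fold change was 0.05, with 11 above and 6 below 0. The median turned to -0.034 without VEZF1-WT library 3 and to -0.015 without VEZF1-2A library 1. It rose to 0.086 without VEZF1-2A library 3. SNHG14, the most abundant, had 0.07 ± 0.11 (SE), SNHG16 0.10 ± 0.07 and SNHG19, at no more than 1.24 CPM in a library, -0.69 ± 0.38. None of the 14 nonsense-mediated decay factors, which degrade the spliced hosts, passed, with a median of 0.02. UPF3A, the most abundant, had 0.05 ± 0.06, SMG9 0.11 ± 0.10 and SMG8 0.07 ± 0.08. The 17 translation factors with a TOP start had a median of 0.00, and none passed. Among them EEF1A1, the elongation factor that delivers tRNAs, had -0.01 ± 0.06, EIF3H -0.10 ± 0.06 and RACK1 -0.04 ± 0.05. The 8 core proteins of small nucleolar particles had a median of 0.04, with NOP56 at 0.05 ± 0.06 and GAR1 at 0.11 ± 0.07.

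UCA1, an RNA named for urothelial carcinoma, varied the most of the 7 tested rows relative to its mean. It had 12, 10.5 and 5.54 CPM in VEZF1-WT and 14.9, 8.89 and 4.04 CPM in VEZF1-2A. Library 1 was the highest and library 3 the lowest in each group, with the highest at 2.17 times library 3 in VEZF1-WT and 3.68 times in VEZF1-2A. Over the 6 libraries its coefficient of variation was 43.5%, against 5.36% for SNHG1. Its SD on the log2 scale, 0.70, was above that of 99.8% of the 4586 tested genes within 2-fold of its level. The same share was 97.0% for MALAT1, 89.2% for KCNQ1OT1, 74.5% for the HULC row, 67.2% for NEAT1, 40.5% for GAS5 and 21.8% for SNHG1, each among the genes at its own level, so 5 of the 7 rows varied more than the median gene. Library 3 was the lowest of both groups in 20.6% of the 17381 tested genes with at least 10 counts in every library, and in 2 of the 7 rows, UCA1 and MALAT1. It was also at least 2-fold under the highest in both groups in 116 genes, or 0.667%. The pattern of UCA1 was singled out after its values were seen. On the log2 scale the groups differed by 0.01 with a 95% interval from -0.85 to 0.87, and from -0.35 to 0.51 with each library left out. LINC01764, which shares 1083 exon bases with UCA1 on the opposite strand, had 4.35, 3.87 and 2.15 CPM in VEZF1-WT and 6.005, 3.10 and 1.93 CPM in VEZF1-2A, in the same order of libraries. AC004510.1 and AC004510.2 also overlap it, with at most 35 and 79 counts.

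The HULC row had 3.27, 3.82 and 3.55 CPM in VEZF1-WT and 4.05, 3.70 and 2.47 CPM in VEZF1-2A. VEZF1-2A held both the highest and the lowest library. Its log2 fold change was 0.06 with a 95% interval from -0.35 to 0.47, and -0.13 without VEZF1-2A library 3. AL161437.1, which shares 240 exon bases with it, had 1.82, 2.25 and 2.02 CPM in VEZF1-WT and 2.71, 2.12 and 1.42 CPM in VEZF1-2A, again with the highest and the lowest library in VEZF1-2A. SLC35B3, on the opposite strand with 44 shared bases, had from 355 to 851 counts, and AL355499.2 at most 1. None of the 5 listed regulators of HULC passed the unadjusted threshold. The groups were apart in 2 of the 5, CREB1 and PRKACB, against 7.36% of all genes tested. The cAMP-responsive factor CREB1 had a log2 fold change of -0.08 ± 0.06 (SE) and the kinase subunits PRKACA and PRKACB 0.16 ± 0.12 and -0.10 ± 0.12. IGF2BP1, an RNA-binding protein and the most abundant, had -0.02 ± 0.06, and CNOT1 of the deadenylase complex 0.02 ± 0.07.

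**Figure D1:**
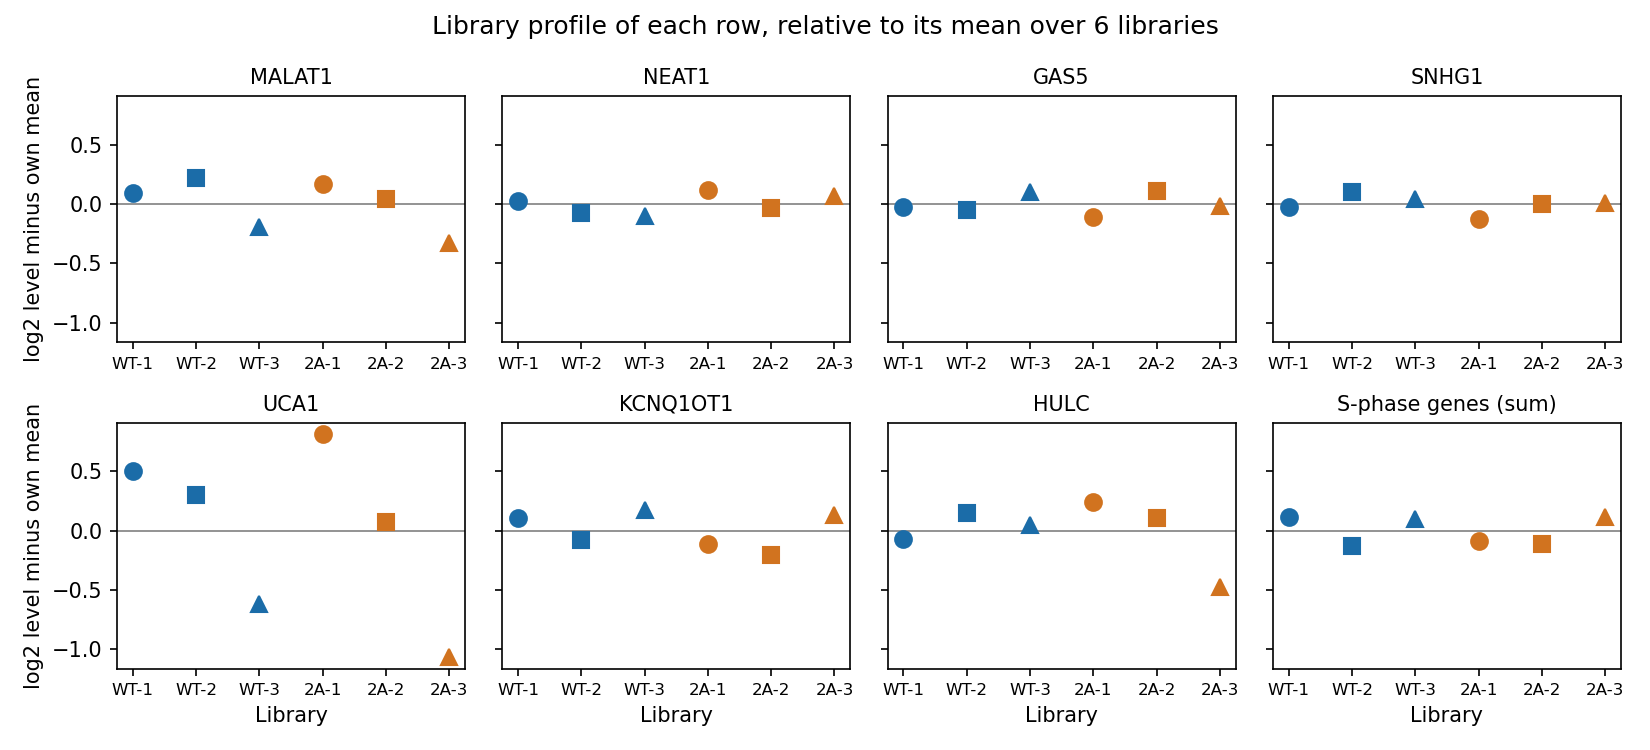
Level of each row in each library on the log2 scale, minus its own mean over the 6 libraries, with the summed level of 12 S-phase genes in the last panel. Library 3 of both groups is low for UCA1 and MALAT1, and KCNQ1OT1 is above its mean in the same 3 libraries as the S-phase sum. Summed levels of the nuclear speckle and paraspeckle proteins, which are not drawn, were higher in these libraries too.

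HOTTIP was near the limit of detection, and so were the rows that overlap it. HOXA13, on the opposite strand with 86 shared exon bases, had from 2 to 14 counts, and the rows AC004080.9, AC004080.10, AC004080.11 and AC004080.16 had at most 2. Of the 14 genes of the HOXA list 6 were tested, none passed the unadjusted threshold, and the median was -0.01. HOXA3, the most abundant, had 8.51, 7.97 and 8.96 CPM in VEZF1-WT and 8.96, 7.82 and 8.72 CPM in VEZF1-2A, HOXA4 a log2 fold change of 0.10 ± 0.13 (SE) and HOXA5 -0.41 ± 0.28. The 6 partners of HOTTIP were all expressed and none passed. KMT2A, the MLL histone methyltransferase, had -0.05 ± 0.06, RBBP5 0.09 ± 0.07 and DPY30 -0.07 ± 0.06.

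Levels of RNAs from the same library were then compared as ratios of counts, which do not depend on how libraries are scaled. NEAT1 reached 0.281, 0.241 and 0.316 of the MALAT1 count in VEZF1-WT, against 0.285, 0.280 and 0.389 in VEZF1-2A. The ratio was highest in library 3 of each group, and the groups overlapped (difference of mean log2 ratios -0.18, two-sided exact permutation p = 0.5). KCNQ1OT1 reached 0.0751, 0.0605 and 0.0962 of MALAT1 in VEZF1-WT, against 0.0612, 0.0630 and 0.102 in VEZF1-2A. Library 3 was again the highest in both groups (difference 0.05, exact p = 1). The ratio of SNHG1 to GAS5 was 0.704, 0.785 and 0.679 in VEZF1-WT, against 0.696, 0.653 and 0.715 in VEZF1-2A (difference 0.07, exact p = 0.5). KCNQ1OT1 exceeded KCNQ1, with 1 count added to both, by 208-fold, 255-fold and 421-fold in VEZF1-WT and by 1427-fold, 368-fold and 385-fold in VEZF1-2A (difference -1.06, exact p = 0.3), the extreme value standing against a KCNQ1 count of 0. Adjusted over the 4 ratios by Benjamini-Hochberg, the exact p was 0.667 for the other ratios and 1 for KCNQ1OT1 to MALAT1. All 4 differences moved when a library was left out. Without VEZF1-2A library 3 that of NEAT1 to MALAT1 was -0.03, and without VEZF1-2A library 1 that of KCNQ1OT1 to KCNQ1 was -0.42. For KCNQ1OT1 to MALAT1 it was -0.12 without VEZF1-WT library 3 and 0.29 without VEZF1-2A library 3. For SNHG1 to GAS5 it was 0.01 without VEZF1-WT library 2.

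For each row with at least 10 counts in every library, the tested genes with the most similar profile over the 6 libraries were listed by Pearson's r of log2(CPM + 0.1), as a description over 6 points that share their scaling. For MALAT1 they were MYO1E, ZNF804A and KRT82 (r = 0.997, 0.997 and 0.996), among 264 genes with r above 0.95. ZNF804A had 3.38, 4.83 and 1.56 CPM in VEZF1-WT and 4.46, 2.85 and 0.905 CPM in VEZF1-2A, a wider spread than that of MALAT1. For KCNQ1OT1 they were PCF11, a factor of 3′ end cleavage, LIME1 and FN3KRP (r = 0.997, 0.995 and 0.993), among 149 such genes. For UCA1 they included STK17B and AC073863.1 (r = 0.996 and 0.995), among 130 such genes. NEAT1 had AL355916.1, SEMA4D and PFDN1, GAS5 had DHRS7B, ADORA2A and CEBPG, SNHG1 had ZNF343, AC008982.2 and POGZ, and the HULC row had TALDO1, MIR6510 and AL138752.2, all with r of at least 0.972.

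The nearest tested genes on either side of the rows, up to 1198090 bases away, were also read from the fit. SLC3A2, whose row begins 149 bases from the SNHG1 row, had a log2 fold change of -0.08 ± 0.10 (SE), and WDR74 on the other side -0.07 ± 0.07. AP000769.1, which lies between NEAT1 and MALAT1, had -0.28 ± 0.39. FRMD8 beside NEAT1 had 0.04 ± 0.20. TSSC4 and SLC22A18AS, 204450 and 187350 bases from KCNQ1OT1, had 0.20 ± 0.15 and 0.17 ± 0.31. CENPL and SERPINC1 flanked GAS5 at 0.05 ± 0.12 and -0.08 ± 0.14. CYP4F12 and CYP4F2, 131032 and 41695 bases from UCA1, had 0.10 ± 0.15 and -0.16 ± 0.32. EEF1E1 and GCNT2, 333009 and 1198090 bases from the HULC row, had -0.05 ± 0.06 and 0.07 ± 0.07. None of these neighbours passed an unadjusted p of 0.05.

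Of 27 other long noncoding RNAs studied in liver cancer, 15 were tested, none passed the unadjusted threshold, and the groups were apart in 1 of 15, near the 7.36% of all genes tested. That gene, DLEU2, had 7.29, 7.05 and 6.67 CPM in VEZF1-WT and 6.52, 6.12 and 5.97 CPM in VEZF1-2A, which gave a log2 fold change of 0.18 ± 0.10 (SE, edgeR, unadjusted p = 0.122). NORAD, which binds Pumilio proteins and was the most abundant, had 0.02 ± 0.07, and MIAT, at no more than 0.549 CPM in a library, -0.45 ± 0.39. The S-phase list had a median of 0.07 with 11 of 12 estimates above 0, and the list of G2 and mitosis 0.05 with 11 of 12 above 0, and none of these genes passed. GINS2 had 0.21 ± 0.12 and MCM4 0.12 ± 0.09, both of the replicative helicase, and TPX2 of the spindle 0.10 ± 0.08.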

How the data were processed

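Per the labels, 6 mRNA libraries of HepG2 cells were made from column-purified RNA. The authors deposited 1 table of read counts per gene, whole numbers without normalization, with the exon positions and length of each gene; GRCh38 is the build named in the submitters' processing notes. The aligner, the counter, the annotation release and the strand setting are not given in the sources used here. Of 54881 symbols found once in GENCODE release 29, 40519 had the same span there, so positions are those of the table. Of 59613 lines, 5 broken lines of ANK2 were left out. Even numbers made up 65.7% to 67.6% of counts of 11 to 100 per library, so counts may not be independent of each other, and tests rest on the spread between libraries.

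Groups and replicate numbers came from the labels. Counts were fitted in R 4.3.3 with edgeR 4.0.16 (filterByExpr with a minimum count of 10 and a minimum total of 15, TMM, glmQLFit and glmQLFTest, two-sided, Benjamini-Hochberg over 19111 genes), after a test on simulated data. The study names no test for these data. CPM used TMM-scaled counts of the tested genes, and single values were tested by exact permutation of log2(CPM + 0.1). Intervals of fold changes are 95% intervals from the fit, and the floor of 3 counts covers counting error only. All 8 rows are named with every library's value; in each list, the 2 genes with the smallest unadjusted p and the most abundant; for each row, the 3 most similar genes, overlapping and neighbouring genes. Members and lists were chosen with earlier results of these data known. Settings tried were other scalings, filters and tests (DESeq2, limma), leaving out each library, a block for the replicate number, gene classes left out and halved counts. Sequences came from RefSeq and GENCODE release 29. Some genes and sequences that these rules select are not reported here.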

Additional observations from a re-analysis of the deposited data

How the results depend on the processing

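The estimates of NEAT1, KCNQ1OT1 and SNHG1 kept their sign in all settings tried, and no tested row changed sign other than by leaving out a library. No gene passed an adjusted p of 0.05 (408 at an unadjusted p under 0.05, edgeR), nor one of 0.1, but 3 did by DESeq2's test (219 unadjusted), 16 without a filter on low counts and 6 with the replicate number as a block (825 unadjusted); none of these were among the 8 rows. Members past an unadjusted p of 0.05 numbered 0, but 1, KCNQ1OT1, with the replicate block (log2 fold change 0.13, edgeR's unadjusted p = 0.0363, which is not an exact test) and 1, again KCNQ1OT1, without VEZF1-2A library 3, where 973 of 19883 genes passed. With each library left out, members past it numbered from 0 to 1. Signs turned for MALAT1 without VEZF1-WT library 2 (-0.016) and VEZF1-2A library 3 (-0.055), the HULC row without VEZF1-2A library 3 (-0.128), GAS5 without VEZF1-WT library 3 (-0.041) and VEZF1-2A library 1 (-0.043), and UCA1 without VEZF1-WT library 1 (-0.226) or 2 (-0.079) and VEZF1-2A library 2 (-0.017) or 3 (-0.347). The highest values with a library left out were 0.185 for MALAT1, 0.19 for the HULC row, 0.071 for GAS5 and 0.508 for UCA1. The cause was not tested. The difference in the log2 ratio of KCNQ1OT1 to MALAT1 ranged from -0.123 to 0.289 with each library left out. That of NEAT1 to MALAT1 ranged from -0.275 to -0.028 (the latter without VEZF1-2A library 3), that of SNHG1 to GAS5 from 0.009 (without VEZF1-WT library 2) to 0.113, and that of KCNQ1OT1 to KCNQ1 from -1.396 to -0.419 (without VEZF1-2A library 1). By CPM without length, KCNQ1OT1 moved from place 6 to place 3 among the 8 rows, and GAS5, SNHG1 and UCA1 to places 4, 5 and 6.

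Same-numbered libraries correlated in their deviations from the group means at 0.082, 0.151 and 0.382 over all tested genes, so the numbers were not taken to pair the libraries. This depends on the genes used: over the 8843 genes with a mean above 10 CPM the same values were 0.227, 0.36 and 0.756, all above the limit of 0.1 used for pairing. VEZF1-WT library 2 correlated better with VEZF1-2A library 1 (0.181) than with library 2 over all tested genes, so not every library correlated best with its own number. In all 3 same-numbered pairs KCNQ1OT1 and SNHG1 were higher and NEAT1 was lower in VEZF1-WT, with blocked p of 0.0363, 0.316 and 0.0526 by edgeR, in that order. The blocked fit had been seen when this was checked. Ratios paired by number cannot give a p under 0.25. Depth limits HOTTIP and KCNQ1, and HULC itself was not resolved by its row.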
